A study of Mus musculus with 6 samples.

Results

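The nuclear factor I genes Nfia, Nfib, Nfic and Nfix were followed across 6 mouse hearts through every array probe set annotated to a single one of them. These were 23 of the 45037 non-control probe sets of the Affymetrix Mouse430_2 array, and 4 of the 18193 genes named on it. Nfib had 7 probe sets, Nfia 6, and Nfic and Nfix 5 each. The family was selected on the mutant minus wild-type difference of Nfic in these same hearts, so all genotype differences below are descriptions without a test. The hearts came from 3 mice labelled EphB4 Mutant and 3 labelled wild type, all of strain C57B6. The series title concerns ephrin-B2 signalling in the myocardium while the ventricular wall forms. The sources used here give neither the allele of the EphB4 mutation nor the age and sex of the mice. Sample descriptions of mutants 1 and 2 and wild types 1 and 2 began with the letters eI, and those of mutant 3 and wild type 3 with eM. The labels do not say what these letters mean, and hearts are named by them below. All values are the authors' RMA log2 intensities, on which a difference of 1 is a doubling of signal. Levels of different probe sets cannot be set against each other on this scale.

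Nuclear factor I proteins are transcription factors that bind DNA as dimers through a conserved N-terminal domain, at a palindrome built from the half-site TTGGC. Each gene is spliced into several isoforms, and the proteins activate some promoters and repress others. In mice they are known for roles in late steps of differentiation: Nfia in glia and the corpus callosum, Nfib in lung and forebrain maturation, Nfic in tooth root formation, and Nfix in the change of skeletal muscle progenitors from an embryonic to a fetal programme. They are also widely expressed in fibroblasts and other mesenchyme.

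Promoter windows, from 250 bases before to 50 after an annotated start (RefSeq, GRCm38.p6), were at hand for 3 of the 4 genes, and 3 of the 6 windows are printed. The Nfic window is shown because Nfic signal was lower in every mutant heart at its brightest probe set, and the Nfia window beside it as that of the other gene with a single window. Of the 4 Nfix windows, the last is shown because it held the half-site on both strands around its start. Half-sites, TTGGC or its reverse complement GCCAA, are in capitals.
Nfic, chr10:81427124-81427423, minus strand: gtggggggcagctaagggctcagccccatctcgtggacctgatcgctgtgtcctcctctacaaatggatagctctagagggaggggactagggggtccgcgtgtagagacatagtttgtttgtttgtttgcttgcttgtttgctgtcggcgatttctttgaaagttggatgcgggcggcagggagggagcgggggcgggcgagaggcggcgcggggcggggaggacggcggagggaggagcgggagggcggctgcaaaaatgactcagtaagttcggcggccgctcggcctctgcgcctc
Nfia, chr4:97581693-97581992, plus strand: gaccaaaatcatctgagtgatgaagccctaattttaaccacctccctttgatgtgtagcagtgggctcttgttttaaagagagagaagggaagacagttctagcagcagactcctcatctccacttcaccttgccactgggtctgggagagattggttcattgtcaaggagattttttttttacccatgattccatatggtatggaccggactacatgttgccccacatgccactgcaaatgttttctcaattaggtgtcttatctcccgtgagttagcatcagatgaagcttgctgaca
Nfix, chr8:84772826-84773125, minus strand: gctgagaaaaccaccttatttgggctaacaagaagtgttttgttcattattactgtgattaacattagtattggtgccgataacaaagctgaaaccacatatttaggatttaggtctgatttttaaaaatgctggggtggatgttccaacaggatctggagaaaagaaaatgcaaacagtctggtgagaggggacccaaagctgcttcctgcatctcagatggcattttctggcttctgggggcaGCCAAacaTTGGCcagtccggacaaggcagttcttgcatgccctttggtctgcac

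The whole palindrome, TTGGC and GCCAA with 5 bases between them, was in none of the 6 family windows and in 0.0365% of all 32851 promoter windows. The half-site, searched on both strands, was in 46.7% of all windows, in 3 of the 4 Nfix windows, and in neither the Nfic nor the Nfia window. The arrangement in the printed Nfix window, GCCAA and TTGGC with 3 bases between them, was looked up after it had been seen there, and 5 of the 32851 windows held it. The Nfic window had a GC content of 63.0%, the Nfia window 44.7%, and the median over all windows was 52.7%. A match of these letters is a description of the window and not a bound site.

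The hearts differed mainly by the letters of their descriptions. On the leading principal component (60.4% of variance) mutant 3 scored 52.6 and wild type 3 34.1, and the eI hearts -24.3 to -17.9. Wild type 1 stood apart on the second component. Beta-actin control probes, 3-prime less 5-prime, differed by 0.77 and 0.51 in the eM hearts, against 0.28 to 0.41 in the eI hearts, and a 5-prime 18S rRNA control read 11.62 and 12.34 against 9.75 to 10.42. All 10 cardiomyocyte markers passed the filter, with list means of 13.70 in both eM hearts and 13.46 to 13.53 in the eI hearts. The median eM minus eI difference of the list was 0.004, and 5 of the 10 markers were lower in eM. Ttn (1.64) and Myh6 (0.67) were the markers that rose most. The brightest Ephb4 probe set read 8.14, 7.93 and 8.06 in the mutant hearts, against 7.83, 8.20 and 8.06 in the wild-type hearts. The signal of this set did not separate the labels, and other Ephb4 sets are not described here. Xist, from the inactive X chromosome of females, was low in mutants 1 and 3 (6.73 and 6.78) and between 11.51 and 12.33 in mutant 2 and the wild-type hearts. With the Xist level as a covariate the mutant minus wild-type difference of Nfic 1435527_at was -0.41. This value rests mainly on mutant 2, the only mutant with a high Xist level. Under the same covariate Nfib 1454834_at moved from 0.02 to 0.39 and Nfix 1436363_a_at from -0.28 to 0.12. Of the 18 family sets described below, 9 in place of 13 were then lower in mutants. The part of sex was not tested.

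Of the 23 probe sets, 18 passed the filter that left out the dimmest 40% of the array (means below 5.38). The remaining 5 had means between 3.52 and 5.04 and were 3 of Nfia, 1 of Nfic and 1 of Nfix. All 7 Nfib probe sets passed. Each heart's level at the probe set of highest mean is shown in the plot of levels by gene.

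**Figure D1:**
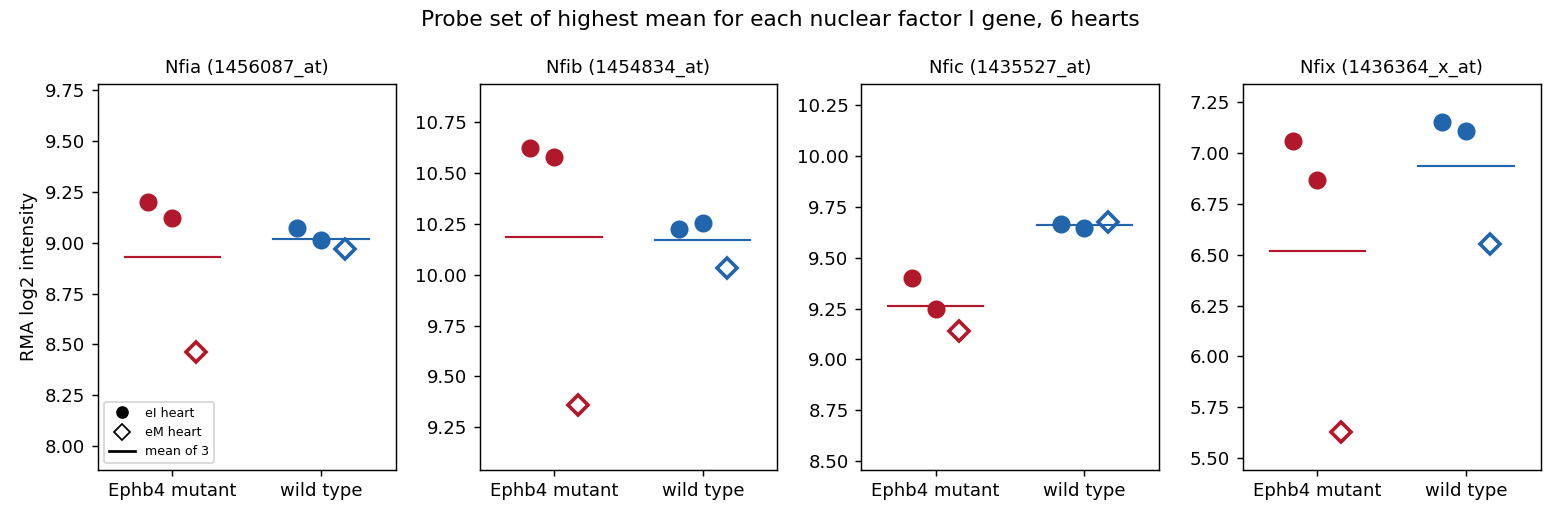
RMA log2 intensity (y axis, each panel spanning the same width) of the probe set of highest mean for Nfia, Nfib, Nfic and Nfix in 3 Ephb4 mutant and 3 wild-type hearts. Filled circles are eI hearts, open diamonds eM hearts and lines the mean of 3. Mutant 3, the eM mutant, is the lowest heart in all 4 panels, and Nfic is the gene whose mutant hearts all lie below the wild-type hearts.

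Nfic, whose product is required for root formation of teeth, had lower signal in every mutant heart at its brightest probe set. This set, 1435527_at, read 9.40, 9.25 and 9.14 in mutants 1, 2 and 3, against 9.67, 9.65 and 9.68 in wild types 1, 2 and 3. The wild-type hearts lay within a few hundredths of each other, eM heart included, and the groups did not overlap. The means were 9.26 ± 0.13 in mutant and 9.66 ± 0.01 in wild-type hearts (SD, n = 3 each), a ratio of mutant over wild type of 0.758. The mutant minus wild-type difference was -0.40 log2 over all hearts, -0.33 within the eI hearts and -0.54 within the single eM pair. In the 11 other settings and subsets of hearts examined it ran from -0.47 to -0.34. Among these, the replicate block and the letters as a block cannot change it, as both hold the genotypes in balance. The range comes from the hearts that led to the choice of the family, so nothing is read from it.

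The dimmer Nfic probe sets gave smaller or less regular differences. The suffix of the set 1450661_x_at marks probes that can match other sequences. This set read 5.51, 5.66 and 5.67 in mutant hearts, against 5.71, 6.44 and 5.53 in wild-type hearts. Its difference of -0.28 thus rested on wild type 2. Without that heart it was -0.01, and it was 0.14 within the eM pair, opposite to the -0.49 of the eI hearts. The set 1427665_a_at differed by -0.16 with overlapping groups. The set 1429148_at had means of 5.84 ± 0.17 in mutant and 5.84 ± 0.31 in wild-type hearts (SD, n = 3 each). The set 1422565_s_at, with a mean of 3.52, had not passed the filter. Of the 4 sets that passed, the brightest was the only one with groups apart.

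Nfib, a gene of lung and forebrain maturation, had close means for the genotypes at its brightest probe set, 1454834_at. It read 10.62, 10.58 and 9.36 in mutants 1, 2 and 3, against 10.22, 10.25 and 10.03 in wild types 1, 2 and 3. Both eI mutants lay above both eI wild types, by 0.36 on average, while the eM mutant lay 0.67 below the eM wild type. The mean difference of 0.02 therefore joined differences of opposite sign. At a dimmer Nfib set, 1434101_at, every mutant heart was below every wild-type heart. It read 6.43, 6.27 and 6.38 in mutant hearts, against 6.67, 7.05 and 6.97 in wild-type hearts. The means were 6.36 ± 0.08 in mutant and 6.89 ± 0.20 in wild-type hearts (SD, n = 3 each). The difference was -0.54, with -0.51 within eI and -0.59 within eM, and a ratio of mutant over wild type of 0.689. The annotation gives 1454834_at, 1434102_at and 1434101_at the same source sequence, and their genotype differences were 0.02, -0.24 and -0.54. The other 4 Nfib sets differed by -0.15 to 0.10 with overlapping groups.

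Nfia, the gene of glial differentiation, had overlapping groups at all 3 tested sets. The brightest, 1456087_at, read 9.20, 9.12 and 8.46 in mutant hearts, against 9.07, 9.01 and 8.97 in wild-type hearts. The eI mutants were the highest hearts and the eM mutant the lowest, so the spread was 0.40 in mutant and 0.05 in wild-type hearts (SD, n = 3 each). The differences of the 3 sets were -0.09, -0.20 and 0.09. Nfix, the gene of the fetal muscle programme, likewise had overlapping groups at all 4 tested sets, with differences from -0.42 to 0.12. Its brightest set, 1436364_x_at, was lower in the mutants by 0.92 within the eM pair and by 0.17 within the eI hearts.

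Over the family, 13 of the 18 tested probe sets had a difference below 0, against 45.9% of all 27022 tested probe sets. Groups did not overlap, with the mutant lower, at 2 of the 18, where 2.27% of all probe sets did so, and none was without overlap with the mutant higher (2.4% of all probe sets). Since Nfic's difference led to the choice of the family, nothing is read from these counts. Between the genotypes limma called 0 of 27022 probe sets (0%) at an adjusted p under 0.05, and 316, or 1.17%, had an unadjusted p under 0.05. Epicardial markers were higher in mutants at 7 of 7 measured genes (list means 8.63 to 8.78 in mutant and 8.21 to 8.66 in wild-type hearts), and liver and endoderm markers lower at 5 of 5 (5.31 to 7.13 in mutant and 5.61 to 8.97 in wild-type hearts). Erythroid markers were higher in mutants at 3 of 3 (median 0.31) and macrophage markers at 4 of 5 (median 0.17). Liver and endoderm means were 6.91, 8.97 and 5.61 in wild types 1, 2 and 3, so wild type 2 stood apart. They were 6.91, 7.13 and 5.31 in mutants 1, 2 and 3. Erythroid means were 10.39, 11.47 and 9.65 in the wild types, with wild type 1 the lowest eI heart. Those of the mutants were 11.39, 11.21 and 9.68. The part of these marker lists in the Nfic and Nfib differences was not tested. Without mutant 3, 7 of the 18 family sets had a difference below 0 in place of 13. The sign of the difference was opposite within eI and within eM at 11 of the 18 sets, as the plot of genotype differences by letters shows. The share of all tested probe sets with opposite signs was not counted, so nothing is read from this number. The interaction of genotype with letters passed at 0 of 27022 probe sets (0%, limma, smallest adjusted p = 0.56), and 1438 had an unadjusted p under 0.05. It rests on 1 eM heart per genotype.

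**Figure D2:**
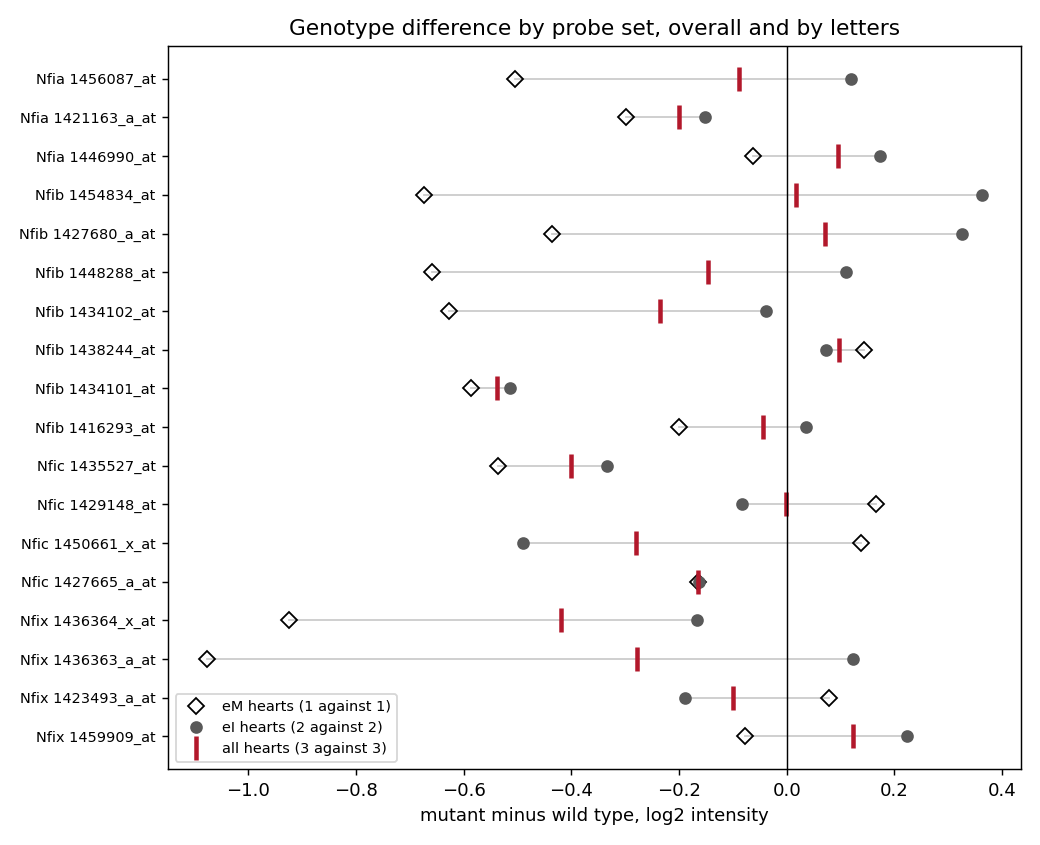
Mutant minus wild-type difference in log2 intensity (x axis) for the 18 tested probe sets of the family, by gene and from highest to lowest mean. Diamonds are the eM pair, circles the eI hearts and red ticks all hearts. Nfic 1435527_at and Nfib 1434101_at keep all 3 marks left of 0, as do Nfia 1421163_a_at, Nfib 1434102_at, Nfic 1427665_a_at and Nfix 1436364_x_at. Nfib 1454834_at and Nfix 1436363_a_at have the eM mark far to the left and the eI mark to the right.

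Between eM and eI hearts the family did not differ in 1 direction. In limma with genotype in the fit and p adjusted over all tested probe sets, 4 of the 18 passed 0.05: 2 of Nfix and 1 of Nfia were lower in eM hearts, and 1 of Nfib was higher. Over the whole array 11.7% of probe sets passed, 4.94% lower and 6.75% higher in eM. Groups did not overlap at 8 family sets with eM lower and at 1 with eM higher, against 20.3% and 22.8% of all probe sets. Of the 18, 15 had a difference below 0 (51.2% of all), and 8 had an unadjusted p under 0.05 (29.2% of all). The median difference was -0.28 over the family sets and -0.01 over all tested sets. Probe sets of a gene share their transcripts and are not independent. The letters are a description of these hearts, with 2 eM hearts. For the family's probe sets, the hearts whose omission ended or gave a call are named below; for single genes of the lists that omission is given only as counts per list.

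**Figure D3:**
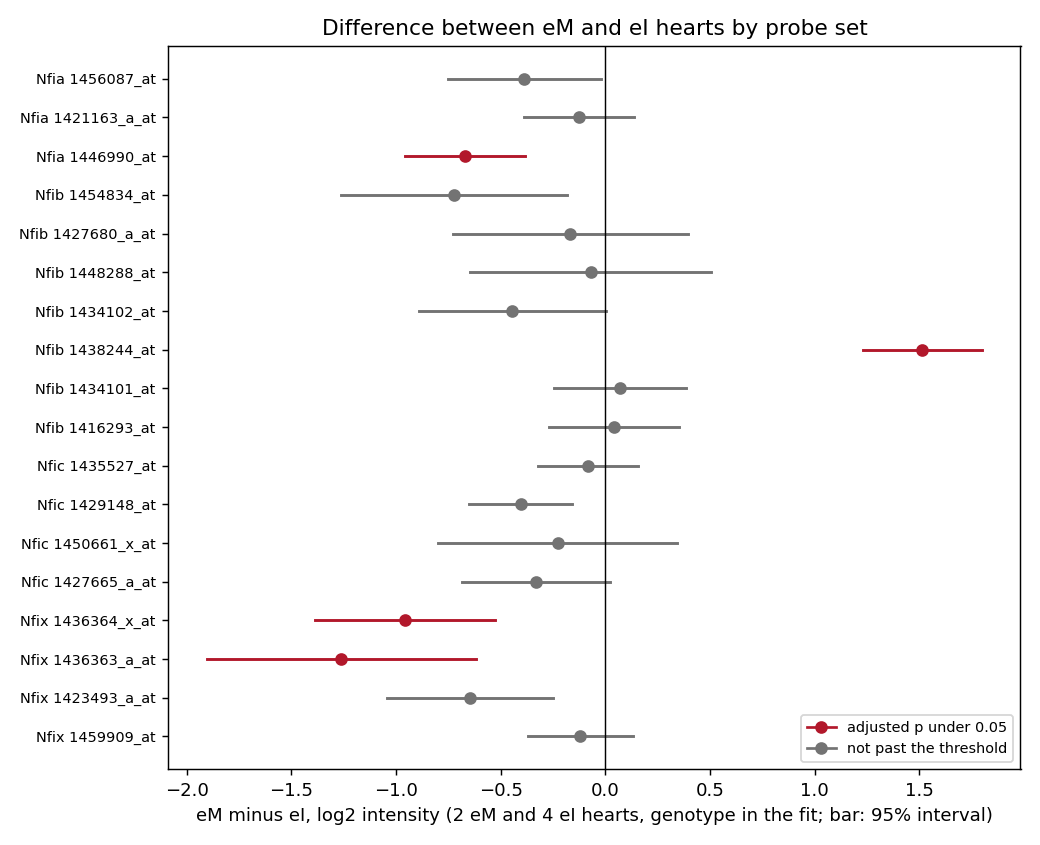
eM minus eI difference in log2 intensity (x axis) with its 95% interval from limma for the 18 tested probe sets, by gene and from highest to lowest mean. The 4 sets past an adjusted p of 0.05 are in red. Nfib 1438244_at lies at 1.51, to the right of all the others, and Nfix 1436363_a_at lies farthest to the left at -1.26.

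Nfix fell in eM hearts at 2 probe sets that share a source sequence. The set 1436363_a_at read 5.07 in mutant 3 and 6.15 in wild type 3, against 6.74 to 7.08 in the 4 eI hearts. Both eM hearts were below every eI heart, and mutant 3 was the lower of the pair. The eM minus eI difference was -1.26 log2 (95% interval -1.90 to -0.62, limma, adjusted p = 0.0342). It was -1.86 among the mutant and -0.66 among the wild-type hearts. The set 1436364_x_at, whose suffix marks probes that can match other sequences, read 5.63 and 6.55 in mutant 3 and wild type 3, against 6.87 to 7.16 in the eI hearts (-0.96, interval -1.39 to -0.52, limma, adjusted p = 0.0245). A further Nfix set, 1423493_a_at, was also lower in both eM hearts at 5.53 and 5.45, against 5.88 to 6.44, but did not pass (-0.65, limma, adjusted p = 0.0543). It passed without wild type 1 (-0.72, limma, adjusted p = 0.0402), without wild type 2 (-0.53, 0.0493) and with no genotype term (-0.65, 0.0374). The dimmest tested Nfix set, 1459909_at, differed by -0.12 with overlap.

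Both Nfix calls were lost without single hearts. For 1436363_a_at the limma adjusted p was 0.209 without mutant 3, where the difference was -0.66, 0.0702 without mutant 1 (-1.11) and 0.1003 without mutant 2 (-1.24). For 1436364_x_at it was 0.184 without mutant 3, with a difference of -0.58, 0.0592 without mutant 1 (-0.86) and 0.0831 without mutant 2 (-0.94). The direction was the same in all of these fits. Both fits that leave 1 eM heart lost calls over the whole array, where 1 probe set passed without mutant 3 and 1263 without wild type 3, against 3160 with all hearts. Without mutant 1 it was 1208 and without mutant 2 it was 815. With the Xist level in place of genotype the limma adjusted p of 1436364_x_at was 0.0513, with a difference of -0.89.

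Nfib gave opposite differences at different probe sets. At 1438244_at the eM hearts read 8.29 (mutant 3) and 8.15 (wild type 3), against 6.58 to 6.89 in the 4 eI hearts. The gap between the letters was wider than the spread within either, and the eM hearts of both genotypes were close. The eM minus eI difference was 1.51 log2, an eM signal 2.86 times that of eI (interval 1.23 to 1.80, limma, adjusted p = 0.0032), and 0.637% of all tested probe sets had a difference this high. It was 1.55 among mutant and 1.48 among wild-type hearts. Of all the fits examined it missed the threshold in 1, without mutant 3 (1.48, limma, adjusted p = 0.09). At the brightest Nfib set, 1454834_at, both eM hearts were instead the lowest, at 9.36 and 10.03 against 10.22 to 10.62. That difference was -0.72 (interval -1.26 to -0.18) and did not pass (limma, adjusted p = 0.0896), with -1.24 among mutant and -0.21 among wild-type hearts. Without wild type 3 it passed (-1.24, limma, adjusted p = 0.0282).

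The remaining Nfib sets differed by -0.44 to 0.07 between the letters, none past the threshold. The set 1434102_at gave -0.44, and passed only without wild type 1 (-0.59, limma, adjusted p = 0.0271). The sets 1427680_a_at and 1448288_at, with means above 9, were low in mutant 3 (8.91 and 8.72) but also in wild type 1 (8.84 and 8.74), and read 9.35 and 9.38 in wild type 3. Thus wild type 3, an eM heart, was below all eI hearts at 1454834_at and within their range at these. The source sequence given for 1438244_at is that of no other family set. Where each set lies in the Nfib transcripts was not analysed here, so whether the sets read different isoforms was not tested.

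**Figure D4:**
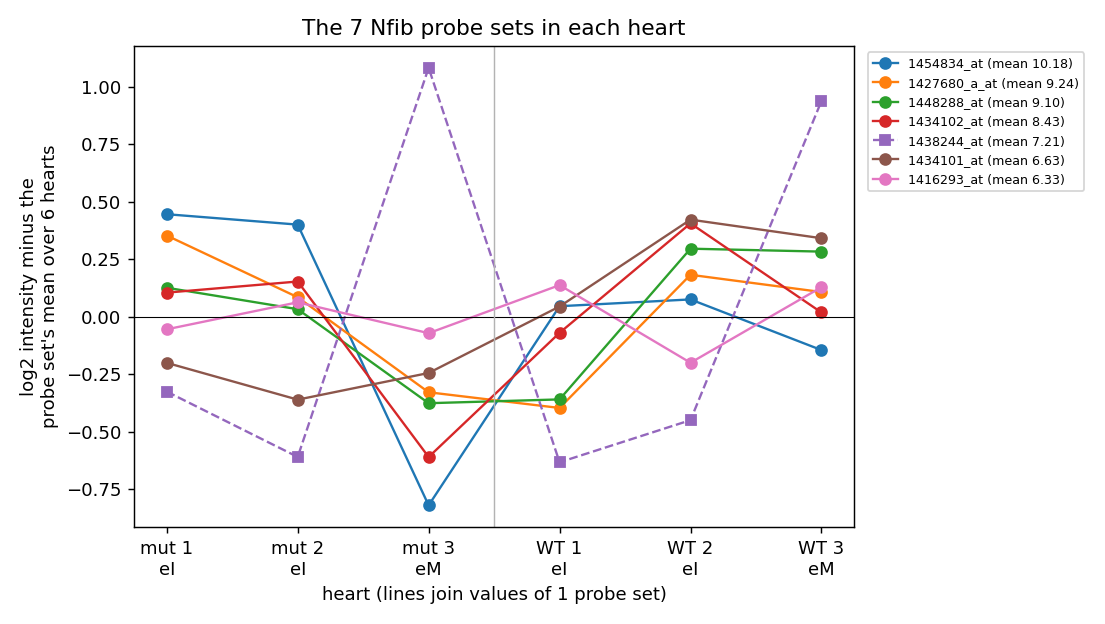
Log2 intensity of the 7 Nfib probe sets in each heart (x axis, mutants left of wild types), each minus its own mean over the 6 hearts. The dashed line, 1438244_at, peaks in the eM hearts mutant 3 and wild type 3. The line of 1454834_at, the brightest set, is lowest in mutant 3.

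Nfia was lower in eM hearts at 1 called probe set, a dim one. The set 1446990_at read 5.85 and 5.91 in mutant 3 and wild type 3, against 6.34 to 6.70 in the eI hearts, a difference of -0.67 (interval -0.96 to -0.38, limma, adjusted p = 0.0213). Both eM hearts were close together and below all eI hearts. Its limma adjusted p was 0.0715 without mutant 1, 0.0815 without mutant 2, 0.242 without mutant 3 and 0.0724 without wild type 3, with differences from -0.79 to -0.55 over the fits that left out a heart. The brightest Nfia set, 1456087_at, differed by -0.39 (limma, adjusted p = 0.154). There wild type 3 read 8.97, close to the 9.01 of wild type 2, and mutant 3 read 8.46, so the difference was -0.70 among mutant and -0.07 among wild-type hearts.

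Nfic differed least by letters at its brightest set: 1435527_at gave -0.08 (interval -0.32 to 0.16, limma, adjusted p = 0.627), and wild type 3 was level with the other wild-type hearts. The dimmer sets 1429148_at and 1427665_a_at were lower in both eM hearts, by 0.40 and 0.33, and neither passed (limma, adjusted p = 0.0538 and 0.193). The set 1429148_at passed after quantile normalization (-0.40, limma, adjusted p = 0.0481) and with no genotype term (-0.40, 0.0329). Leaving out wild type 1 brought 1427665_a_at past the threshold (-0.43, limma, adjusted p = 0.0469).

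Genes tied to the family were described from lists, and these were chosen with earlier results of these data known. For genes represented by their brightest probe set, 9.99% of 13572 passed between the letters, 5.7% lower and 4.3% higher in eM, with a median of -0.03. Partners and regulators of nuclear factor I proteins gave 2 of 13 measured genes higher and 0 lower in eM hearts, with a median of 0.05. Ep300, a histone acetyltransferase and coactivator, read 10.32 and 10.17 in mutant 3 and wild type 3, against 9.41 to 9.73 in the eI hearts (0.72 ± 0.10 SE, limma, adjusted p = 0.011). Sox9, which induces Nfia in glial progenitors, read 7.98 and 8.25 against 7.23 to 7.68 (0.72 ± 0.12 SE, limma, adjusted p = 0.0169). Crebbp and Tle3 differed by 0.26 and 0.29 and did not pass.

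Genes reported as nuclear factor I targets in muscle, matrix and growth control were lower in eM hearts at 11 of 14 measured members, 4 of them past the threshold and 1 past it in the other direction, with a median of -0.27. Ckm, the muscle creatine kinase, read 6.88 and 7.26 in mutant 3 and wild type 3, against 7.92 to 8.58 in the eI hearts (-1.18 ± 0.20 SE, limma, adjusted p = 0.0185). Eno3, the muscle enolase, differed by -0.46 (limma, adjusted p = 0.0408). Col1a2, a collagen chain, differed by -1.12 and Ccn2, a matricellular growth factor, by -0.996 (limma, adjusted p = 0.0213 and 0.027). Igfbp5, an insulin-like growth factor binding protein, was the member higher in eM, by 0.37 (limma, adjusted p = 0.0416). Of the targets known from brain and glia, 2 of 9 passed, both lower in eM: Apcdd1, a Wnt inhibitor, by -0.55 and Hes1, a Notch effector, by -0.65 (limma, adjusted p = 0.0225 and 0.0244). Slc1a3 (0.53) and Aldh1l1 (-0.35) did not pass. Between genotypes the median differences of the 3 lists were -0.01, 0.00 and -0.11, and none of their genes had groups without overlap. The half-site stood in a promoter window of 7 of the 10 muscle and matrix targets that had a window and of 3 of the 7 glial ones, against 50.4% of all genes with a window.

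Markers of several other cell types also differed between the letters. Early embryonic regulators, a list chosen for its letters difference and so no evidence of it, were higher in eM at 8 of 8 measured genes, 7 of them called, with a median of 1.28, and list means of 10.27 and 9.55 in mutant 3 and wild type 3 against 8.43 to 8.65 in the eI hearts. Among them Prtg, Trim71, Sall4 and Igf2bp1 differed by 1.71, 1.96, 1.53 and 0.82. Fibroblast and mesenchyme markers were lower at 8 of 8 (2 called, median -0.84), with list means of 9.20 and 10.09 in the eM hearts against 10.53 to 11.03, and no marker was at the bottom of the scale (lowest mean over hearts 9.06). Macrophage markers were lower at 5 of 5 (3 called, median -1.14; 5.91 and 5.93 against 6.69 to 7.13), erythroid markers at 3 of 3 (2 called) and liver and endoderm markers at 5 of 5 (1 called). Endothelial markers were lower at 5 of 7 (2 called) and neural and Schwann markers at 3 of 4 (0 called). Smooth muscle and pericyte markers were higher at 4 of 6 (2 called), epicardial markers at 5 of 7 (2 called higher, 1 lower) and cardiomyocyte markers at 5 of 10 (2 called). The part of these shifts in the Nfix, Nfia and Nfib differences was not tested, and in whole hearts fewer cells of a type and less RNA per cell cannot be told apart. The beta-actin and 18S rRNA controls given above also split by the letters. Their part in these differences was not tested either. Without mutant 3 none of the 13 lists had a called gene, and the fibroblast median was -0.23. Without mutant 1, calls numbered 4 of the early embryonic genes, 1 partner, 1 muscle and matrix target and 0 glial targets. Without mutant 2 they numbered 2 of the early embryonic genes and 0 in each of the 3 nuclear factor I lists. Without wild type 3 they numbered 7 early embryonic genes, 0 partners, 4 muscle and matrix targets and 1 glial target, and the fibroblast median was -1.46. Among the marker lists, 6 fibroblast, 1 macrophage, 0 erythroid and 0 liver and endoderm genes were called lower without wild type 3. Without wild type 2, 5 liver and endoderm genes were called, and without wild type 1, 3. Without mutant 2 the calls were 1 fibroblast, 0 erythroid and 0 liver and endoderm genes, and without mutant 1 they were 1 fibroblast and 1 erythroid gene. Over the fits that left out a heart, calls ran from 0 to 4 for endothelial, 0 to 4 for epicardial, 0 to 2 for smooth muscle, 0 to 2 for cardiomyocyte and 0 to 1 for neural markers. Col1a1 and Col1a2 stand both among the muscle and matrix targets and among the fibroblast markers.

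The genes most like the brightest probe set of each member were found by the root mean square difference of the 6 heart values, each pattern centred on its mean, among 13571 other genes. For Nfia they were Gm5817 (0.02 log2), Ccdc28b (0.03) and Cep83os (0.04), where the median gene was 0.27 away. For Nfib they were Hs3st1, Foxc1 and Kcnj8 (0.06 to 0.07, median gene 0.43), each with the highest values in mutants 1 and 2 and the lowest in mutant 3. These are neighbours of 1454834_at, and not of the called Nfib set 1438244_at, which was higher in eM. For Nfix they were Igf1, Dixdc1 and Tnfrsf12a (0.09 to 0.11, median gene 0.53), and for Nfic they were St6galnac5, Jakmip1 and Dhdh (0.07 to 0.09, median gene 0.26). Within the family Nfix was closer to Nfib (0.26) than to Nfia (0.32) or Nfic (0.43), and Nfia and Nfib were 0.20 apart. The distance depends on the size of a gene's swings as well as on their order, and it describes these 6 hearts.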

How the data were processed

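RNA of 6 mouse hearts, 1 array per mouse, was hybridised to Affymetrix Mouse430_2 arrays. Per the submitters' processing notes, RMA (version unstated) gave the authors' deposited log2 values, which ran from 2.42 to 14.79, and signal over background is not known. Of 45101 probe sets, 64 controls were left out; 34945 named 1 gene, 932 named several and 9160 were unnamed here. Symbols were checked by gene ID against RefSeq (34741 matched, 0 changed).

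Probe sets with a mean in the lowest 40% were left out, which left 27022. The limma package (version 3.58.1, under R 4.3.3) was used with lmFit and eBayes, two-sided, at a Benjamini-Hochberg threshold of 0.05, for genotype alone, for letters with genotype, and for their interaction. The fit was tested on simulated data. The number of arrays limits the precision. Named genes were every family probe set, the 3 genes most like each member, and up to 4 genes of smallest letters p per list; Igfbp5, outside this rule, was named after its values were seen. The labels do not say whether other steps were shared between mice. The p-values set a difference only against the spread between these samples that the fit leaves, moderated by eBayes over the tested probe sets. With 1 eM heart per genotype, the spread among eM hearts of a genotype is not measured. Members and lists were chosen with earlier results of these data known. Replicate numbers of the titles were treated as pairing only in an alternative genotype fit, the replicate block, though the titles state no pairing. The main fits left it out. Deviations of mutants 1, 2 and 3 from their group mean correlated with those of the same-numbered wild types at 0.18, 0.36 and 0.74. The last is the eM pair. The eI hearts of unlike number correlated higher than the same-numbered eI hearts, at 0.49 and 0.47. Promoter windows were those of RefSeq in GRCm38.p6; proteins were not used here. Plots used matplotlib 3.10.9 (Python 3.11.15).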

Additional observations from a re-analysis of the deposited data

Results flagged for a closer look

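At 4 probe sets both eI mutants lay on one side of both eI wild types while the eM mutant lay on the other side of the eM wild type. The mutant minus wild-type difference, eM minus eI, was -1.04 at Nfib 1454834_at (-0.67 in eM, 0.36 in eI), -0.62 at Nfia 1456087_at (-0.50 in eM, 0.12 in eI), 0.63 at Nfic 1450661_x_at (0.14 in eM, -0.49 in eI) and -0.30 at Nfix 1459909_at (-0.08 in eM, 0.22 in eI). By the interaction term none passed (limma, adjusted p from 0.909 to 0.944), with 1 eM heart per genotype.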

How the results depend on the processing

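The alternatives were quantile normalization, centring array medians, no filter, a filter of 60%, eBayes with trend and robust, other covariates, and each heart left out. The direction of the letters difference turned only in fits that left out a heart, at 7 uncalled sets, whose differences ran from -0.55 to 0.21 (Nfib 1427680_a_at), -0.46 to 0.31 (1448288_at), -0.014 to 0.15 (1434101_at), -0.076 to 0.16 (1416293_at), -0.18 to 0.019 (Nfic 1435527_at), -0.54 to 0.086 (1450661_x_at) and -0.27 to 0.031 (Nfix 1459909_at). Leaving out a heart moved the family sets called by letters from 4 to between 0 and 7, all called probe sets from 3160 to between 1 and 4333, the family sets lower in mutants from 13 to between 7 and 16, and the probe sets called by genotype from 0 to between 0 and 2. The stricter filter, which tested fewer sets, called 2 family sets. With the Xist level in place of genotype, the call of Nfix 1436364_x_at was lost (-0.89, limma, adjusted p = 0.0513). Quantile normalization called 5 family sets and the fit with no genotype term 6. The Xist level as a covariate beside genotype left 9 of 18 family sets lower in mutants. The cause of the other moves was not tested. With the replicate block, the pairing by title numbers, limma called 0 probe sets by genotype, as without it. Each number holds 1 mutant and 1 wild type, so the block cannot change a mutant minus wild-type difference. The count of 13 family sets lower in mutants was therefore fixed and is no check. The letters could not be fitted with the block, since number 3 is the eM heart of both genotypes, so their p-values leave the pairing out. Counts of lists without each heart were added after seeing the data.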
